A study of Mus musculus with 8 samples.

Results

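The proneural factors and early neuron genes are 9 genes of the steps that turn a neural progenitor into a neuron: the transcription factor genes Neurog1, Neurog2, Neurod1 and Neurod4, and the neuron genes Tubb3, Dcx, Elavl3, Elavl4 and Stmn2. They were found by the RefSeq accession that each array probe carries, which gave 13 probes for the 9 genes, out of 20145 genes that could be named on the array. The samples are whole CD-1 mouse embryos of gestational day 9. CD-1 is an outbred stock. Dams were injected intraperitoneally with 400 mg/kg hydroxyurea (4 samples) or with saline (4 samples), and embryos were taken 3 h later. Hydroxyurea inhibits ribonucleotide reductase and so the supply of DNA precursors. Their RNA, carrying the dye Cy3, was measured on Agilent 1-colour arrays, which lay on 2 slides with 2 arrays of each group. The labels do not say how many embryos or litters went into a sample, so the spread between samples may be partly technical. Separate experiments are mentioned in the labels, without a link from any array to its experiment. Hydroxyurea and saline samples were therefore compared unpaired in the main test, and differences between experiments, if any, remain in the spread. The series' title names p53 signalling after hydroxyurea as its subject, and the comparison here asks whether transcripts of early neurogenesis differed between hydroxyurea and saline embryos.

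Proneural factors are basic helix-loop-helix proteins that pair with E proteins and bind the E-box of DNA. Neurog1 and Neurog2 act in dividing progenitors of the neural tube and the cranial placodes, switch on Notch ligands and commit cells to the neuronal fate, and Neurod1 and Neurod4 follow in cells that are becoming neurons. New neurons then make the class III beta-tubulin TUBB3, the microtubule-binding protein doublecortin (Dcx), the RNA-binding Hu proteins (Elavl3, Elavl4) and the microtubule regulator stathmin-2 (Stmn2). At this stage of mouse development neurons are few, and most neural cells are still progenitors.

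The promoters of Neurog2, Neurod1, Elavl3 and Elavl4 are shown because they run from the gene at the head of the sequence of steps, the only one whose hydroxyurea and saline values did not overlap, to later genes. Each is the 250 bases before the start of transcription, 5′ to 3′ on the gene's strand, from RefSeq (GRCm38.p6), and capitals mark each match to the E-box CANNTG. Elavl4 has 4 windows in the table, and the one shown is 1 of a pair of overlapping windows with 3 matches. Its other windows hold 1 and 0 matches.
Neurog2, chr3:127632886-127633135, plus strand: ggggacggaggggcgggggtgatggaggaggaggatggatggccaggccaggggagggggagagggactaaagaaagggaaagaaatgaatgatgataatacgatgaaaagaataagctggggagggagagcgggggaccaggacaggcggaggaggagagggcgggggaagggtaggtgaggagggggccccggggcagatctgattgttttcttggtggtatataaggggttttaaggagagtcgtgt
Neurod1, chr2:79456637-79456886, minus strand: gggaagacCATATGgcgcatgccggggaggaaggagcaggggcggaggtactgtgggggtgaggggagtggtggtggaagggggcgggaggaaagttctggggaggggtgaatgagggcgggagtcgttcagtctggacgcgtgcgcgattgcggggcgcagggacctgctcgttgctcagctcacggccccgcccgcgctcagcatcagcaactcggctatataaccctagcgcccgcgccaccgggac
Elavl3, chr9:22052024-22052273, minus strand: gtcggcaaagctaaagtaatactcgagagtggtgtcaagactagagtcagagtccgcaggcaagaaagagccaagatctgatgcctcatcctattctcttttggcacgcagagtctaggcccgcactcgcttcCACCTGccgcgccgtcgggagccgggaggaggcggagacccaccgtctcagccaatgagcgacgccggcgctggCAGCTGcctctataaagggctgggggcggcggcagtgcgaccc
Elavl4, chr4:110287512-110287761, minus strand: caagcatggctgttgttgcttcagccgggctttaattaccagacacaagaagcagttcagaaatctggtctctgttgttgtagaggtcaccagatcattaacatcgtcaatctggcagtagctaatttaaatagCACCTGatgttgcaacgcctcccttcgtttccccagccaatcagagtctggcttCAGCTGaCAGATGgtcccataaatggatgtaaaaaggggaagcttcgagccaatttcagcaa
Of the 9 genes 8 had a promoter in the table, with 13 windows in all. Of these windows 5 held at least 1 CANNTG, against 66.2% of all 32851 promoters of the same length. By gene, 3 of the 8 (Neurod1, Elavl3 and Elavl4) had a match in at least 1 window. The Elavl4 window shown, chosen from 4, held 3 matches, one of them CAGATG and another CAGCTG. Of all promoters 12.2% held 3 or more. The form CAGATG, counted on both strands, was in 14.4% of all promoters, and CAGCTG, which reads the same on both strands, in 13.0%. These matches are a description of letters in the windows, and the absence of a match says nothing of binding elsewhere.

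The arrays' signal was scaled to the 75th percentile of each array, so a level of 0 on the log2 scale means a signal at that percentile, and levels are compared within a probe only. The 75th percentile lay between 249 and 516 intensity units, and the share of spots well above background ran from 48.7% to 62.3%. Hydroxyurea 3 had the minimum of each. The test took the 30758 probes that 4 or more of the 8 arrays showed well above background. A probe was called when its p from limma, adjusted over these probes by the Benjamini-Hochberg method, was under 0.05, and 2097 probes were called (6.82%), 4.29% as lower and 2.52% as higher in hydroxyurea embryos. Of the 13 member probes 11 passed this filter and every gene kept at least 1, so each of the 9 was measurable in day 9 embryos. The array numbers (hydroxyurea 1 to 4, saline 1 to 4) only name samples and pair none.

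No member gene passed the test. Of the 11 probes 0 were called by limma, against 6.82% of all tested probes, and 2 had an unadjusted p under 0.05, against 24.7% of all. By probe, 6 of the 11 were lower in hydroxyurea than in saline embryos and 5 were higher. By gene, 6 of the 9 were lower, among them Elavl4 at -0.04, whose second probe was at 0.50. The median log2 difference was -0.37 over the 9 genes, against 0.10 over the 14657 named genes tested. The median of the 9 was -0.15 with the normexp background correction. This setting adds an offset of 50 to each signal, which by construction narrows the log2 differences of dim probes most. The 4 proneural factors had a median of -0.74, which was -0.15 with normexp. The 5 neuron genes had one of -0.04, the value of the brighter Elavl4 probe, and it was 0.06 with normexp and 0.19 with the mean of each gene's probes. A whole-embryo signal cannot tell apart fewer cells of a kind and less RNA per cell. None of the 13 probes stands among the 1346 of the authors' deposited table, a list of genes they called different. The difference between hydroxyurea and saline was also compared between the slides: 0 of the 11 member probes had an unadjusted p under 0.05 for that interaction in limma, against 0.972% of all tested probes, and after adjustment it was 0.0% of all.

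Neurog2 came closest to the threshold. Its log2 level (NM_009718) was -1.30, -0.27, -0.44 and -1.46 on the hydroxyurea arrays 1 to 4, and 0.40, 0.15, -0.06 and 0.25 on the saline arrays 1 to 4. Every hydroxyurea array lay below every saline array, and the hydroxyurea arrays 1 and 4 were lowest. The difference was -1.05 ± 0.28 (SE, n = 4 per group), which is 2.08-fold lower in hydroxyurea embryos, with a 95% interval from -1.69 to -0.42 and a limma adjusted p = 0.058. Such separation of the groups, in either direction, was seen for 15.8% of all tested probes and, with hydroxyurea below, for 8.47%. For Neurog2 each slide alone, with 2 arrays of each group, gave -1.06 on slide 1 and -1.05 on slide 2. Neither passed (limma adjusted p = 0.544 and 0.358). The hydroxyurea arrays of a slide lay far apart, at -1.30 and -0.27 on slide 1 and -0.44 and -1.46 on slide 2, so the closeness of these means shows little. The gene passed in 4 of 20 alternative settings, among them that without hydroxyurea 2 (adjusted p = 0.020), and its adjusted p ran from 0.020 to 0.544 over all 20.

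Neurog1 (NM_010896), which drives the neurons of the proximal cranial ganglia, had log2 levels of -3.99, -2.74, -2.92 and -3.47 in hydroxyurea embryos and -2.37, -2.48, -2.42 and -3.02 in saline embryos. Saline 4 lay among the hydroxyurea values, and the other saline arrays lay above all of them. The difference was -0.71 ± 0.29 (SE, n = 4 per group, limma adjusted p = 0.168), with an interval from -1.35 to -0.06. With normexp it was -0.16, and without hydroxyurea 1 it was -0.47. Neurod4 (NM_007501), a factor of differentiating neurons, was well above background on 3 of the 4 hydroxyurea arrays and on all 4 saline arrays. Its levels were -4.69, -3.38, -4.13 and -4.23 in hydroxyurea embryos and -3.28, -4.21, -3.31 and -2.52 in saline embryos, so that the groups overlapped through saline 2, the only saline array below hydroxyurea 2. With n = 4 per group the difference was -0.78 ± 0.38 (SE, limma adjusted p = 0.236), with an interval from -1.62 to 0.07, and slides 1 and 2 gave -0.29 and -1.26. It was -0.15 with normexp and -0.51 without saline 4.

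Neurod1, which follows the neurogenins in ganglia and in the neural tube, lay on the other side of 0. Both of its probes carry NM_010894. The first (A_55_P2004972) read -2.45, -2.06, -2.26 and -2.01 in hydroxyurea embryos and -1.90, -2.90, -2.43 and -2.55 in saline embryos. The second (A_52_P408391) read -2.52, -2.82, -2.61 and -2.42 in hydroxyurea embryos and -2.80, -3.39, -3.26 and -2.62 in saline embryos. Saline 1 lay above all hydroxyurea arrays in the first probe, saline 1 and saline 4 lay among them in the second, and saline 2 was lowest in both. The differences were 0.25 ± 0.22 and 0.43 ± 0.21 (SE, n = 4 per group, limma adjusted p = 0.522 and 0.233), with intervals from -0.25 to 0.76 and from -0.03 to 0.89. With normexp they were 0.12 and 0.25, and the first was 0.10 without saline 2 and 0.44 without saline 1.

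**Figure D1:**
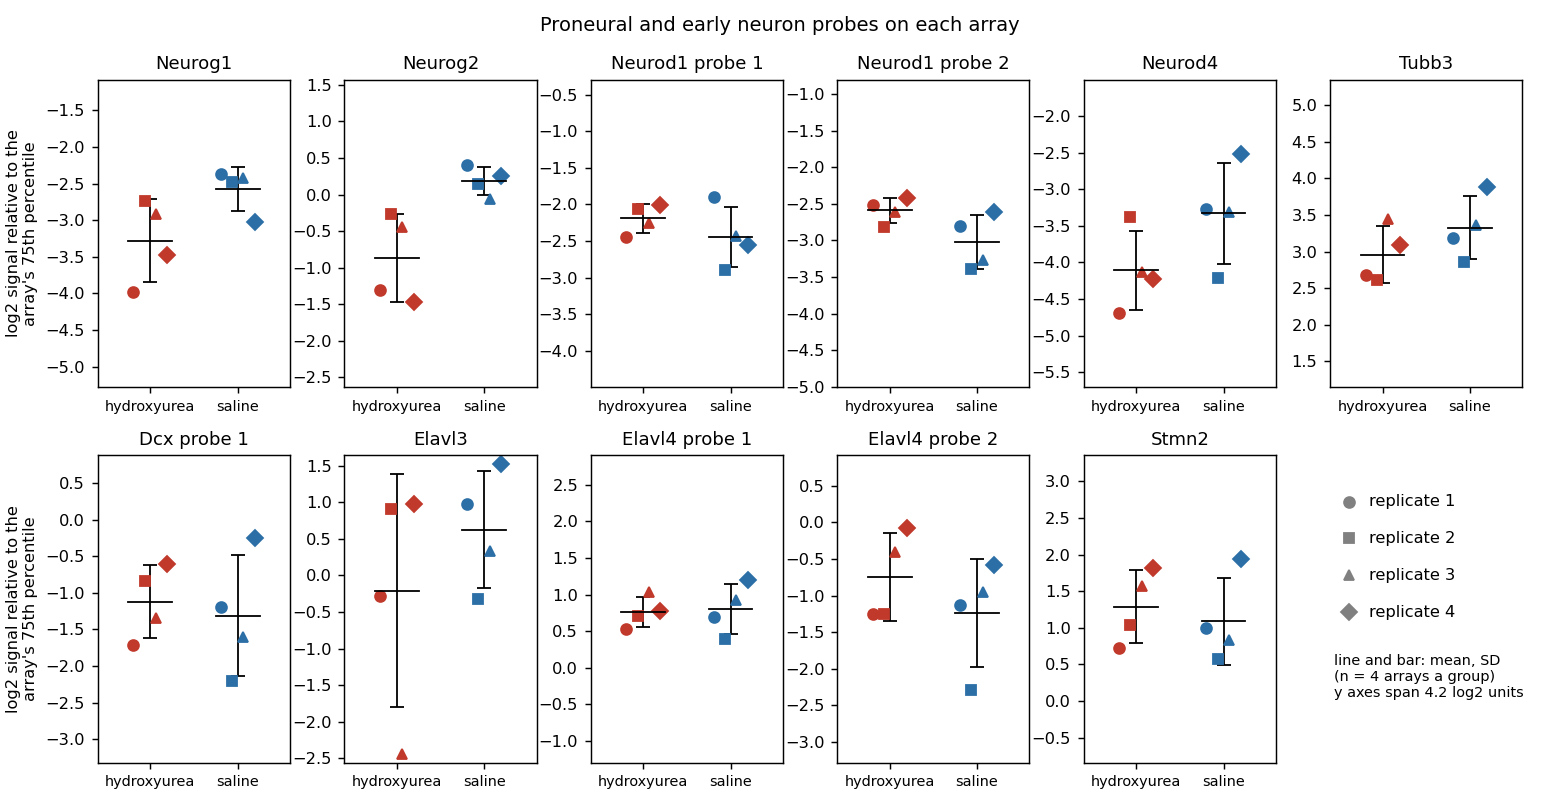
Log2 signal of the 11 tested probes relative to each array's 75th percentile (y axes, each spanning the same number of log2 units), for 4 hydroxyurea and 4 saline arrays (x axis). Points are arrays, with a symbol for each array number, and lines and bars are means and SD; of the probes shown only Neurog2 has no overlap between the groups, and saline 2 is the lowest saline array in all 6 neuron gene probes.

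Among the neuron genes the groups overlapped throughout. Tubb3 (NM_023279) had log2 levels of 2.68, 2.61, 3.45 and 3.10 in hydroxyurea embryos and 3.19, 2.86, 3.37 and 3.89 in saline embryos. The difference was -0.37 ± 0.26 (SE, n = 4 per group, limma adjusted p = 0.428), with an interval from -0.96 to 0.23. Saline 4 was highest and hydroxyurea 2 lowest. The difference was -0.38 on slide 1 alone, -0.35 on slide 2 alone and -0.18 without saline 4. Stmn2 (NM_025285) read 0.72, 1.03, 1.57 and 1.82 in hydroxyurea embryos and 1.0017, 0.57, 0.84 and 1.94 in saline embryos. Saline 4 was its highest array and saline 2 its lowest, and the groups differed by 0.20 ± 0.34 (SE, limma adjusted p = 0.760, n = 4 per group), with an interval from -0.56 to 0.95. Leaving out 1 array moved it between 0.02 (without hydroxyurea 4) and 0.48 (without saline 4), with 0.03 without saline 2, and normexp gave 0.07.

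The Hu protein genes differed in how steady they were. The first Elavl4 probe (A_55_P1990314, NM_010488) read 0.53, 0.71, 1.03 and 0.78 in hydroxyurea embryos and 0.69, 0.40, 0.93 and 1.20 in saline embryos. Its difference of -0.04 ± 0.20 had an interval from -0.50 to 0.41 (n = 4 per group, limma adjusted p = 0.922), and its sign changed in 6 of 20 alternative settings. The second (A_55_P1990309) read -1.25, -1.25, -0.40 and -0.07 in hydroxyurea embryos and -1.13, -2.30, -0.95 and -0.59 in saline embryos, a difference of 0.50 ± 0.40 (SE, limma adjusted p = 0.482) with an interval from -0.41 to 1.40, which was 0.27 without hydroxyurea 4 and 0.15 without saline 2. Elavl3 (NM_010487) had the widest spread of all members. It read -0.29, 0.91, -2.44 and 0.97 in hydroxyurea embryos and 0.98, -0.33, 0.34 and 1.52 in saline embryos. Hydroxyurea 3 stood far below the others, and without it the difference was -0.09, against -0.84 ± 0.73 with it (SE, n = 4 per group, limma adjusted p = 0.517). The spread of Elavl3 within groups, an SD of 1.26, exceeded that of 98.8% of all tested probes, whose median SD was 0.304.

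Dcx has 3 probes on the array. The one that passed the filter (A_52_P244349, NM_010025) read -1.71, -0.83, -1.34 and -0.61 in hydroxyurea embryos and -1.20, -2.20, -1.60 and -0.24 in saline embryos. The saline values spanned the hydroxyurea values, with a difference of 0.19 ± 0.41 (SE, n = 4 per group, limma adjusted p = 0.813) and an interval from -0.727 to 1.104. It was -0.11 without saline 2 and 0.54 without saline 4. Another probe for NM_010025 was well above background on 0 of the 8 arrays. The third, for the transcript NM_001110222, was well above background only on hydroxyurea 3, at -1.45, and between -7.20 and -4.73 on the others.

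**Figure D2:**
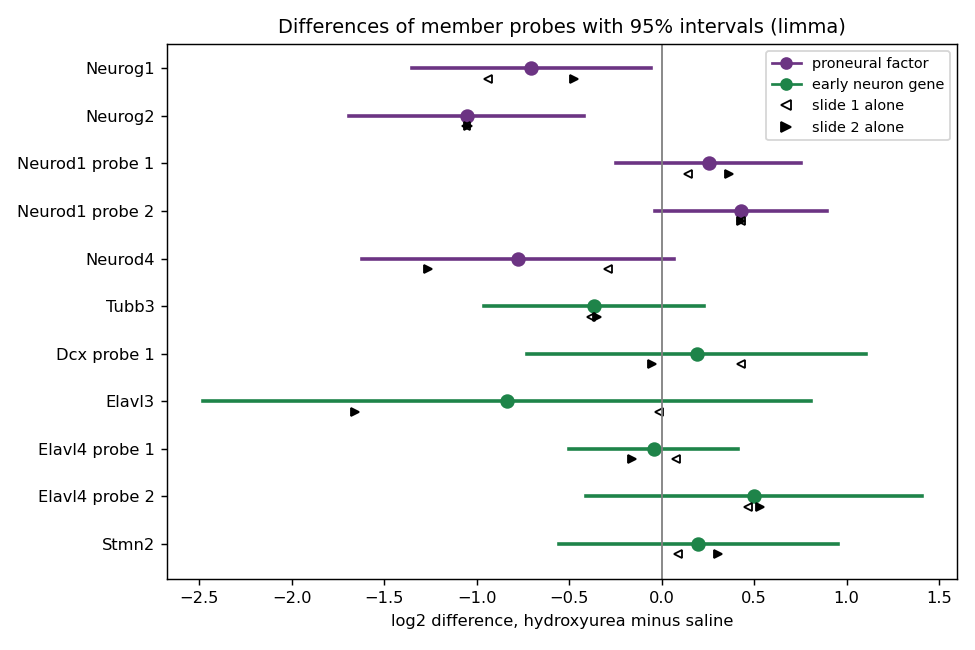
Log2 difference of hydroxyurea minus saline (x axis) for the 11 tested probes (y axis), with filled circles for the limma estimate, lines for its 95% interval and triangles for each slide alone. Neurog2 has the largest estimate, with the slides at -1.06 and -1.05, whereas the slides of Elavl3 lie apart at -0.01 and -1.66. Each slide has 2 arrays of each group.

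Among the saline arrays the neuron genes shared their lowest and their highest array, while the order of saline 1 and saline 3 varied. Hydroxyurea 4 was the highest hydroxyurea array in 4 of 6 neuron gene probes and hydroxyurea 1 the lowest in 3, while over all named genes these shares were 17.9% and 14.0%. Saline 2 was the lowest saline array in 6 of 6 and saline 4 the highest in 6 of 6, against 20.7% and 23.3% of all named genes. In a list of 39 other measured early neuron genes, hydroxyurea 4 was highest in 18, while hydroxyurea 2 was lowest in 19 and hydroxyurea 1 in 11. In the same list saline 2 was lowest in 19 and saline 4 highest in 28. In the 5 proneural probes hydroxyurea 1 was lowest in 3 and hydroxyurea 2 highest in 3, and saline 2 was lowest in 3 and saline 1 highest in 3.

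Markers of tissues that adjoin the embryo also differed between arrays. The summed level of 8 yolk sac endoderm markers, such as Ttr, Afp and Apob, ran from 16.1 to 87.7 times the 75th percentile in hydroxyurea embryos and from 19.1 to 255 times in saline embryos, with the maximum on saline 2 and the minimum on hydroxyurea 3. Of these 8 markers 0 were called by limma. The summed level of 4 measured trophoblast or decidua markers ran from 2.06 to 69.9 in hydroxyurea embryos and from 2.66 to 4.30 in saline embryos, and 1 of the 4 was called, the mesoderm and trophoblast factor gene Hand1, as lower (-1.42 ± 0.23, SE). The other 3, Plac1 (0.46), Prl3d1 (2.06) and Prl8a2 (3.88), were not called and lay above 0, and the list's median was 1.26. The summed level was highest on hydroxyurea 3, where the decidual prolactin gene Prl8a2 read 6.03, against -6.84 on hydroxyurea 4. Among the hydroxyurea arrays, hydroxyurea 3 was lowest in 1 of 6 neuron gene probes, that of Elavl3. It was highest in 2, those of Tubb3 and the first Elavl4 probe. Psg21 and Tpbpa, of the trophoblast or decidua list, did not pass the filter. The part of these markers in the neuron gene values was not tested.

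**Figure D3:**
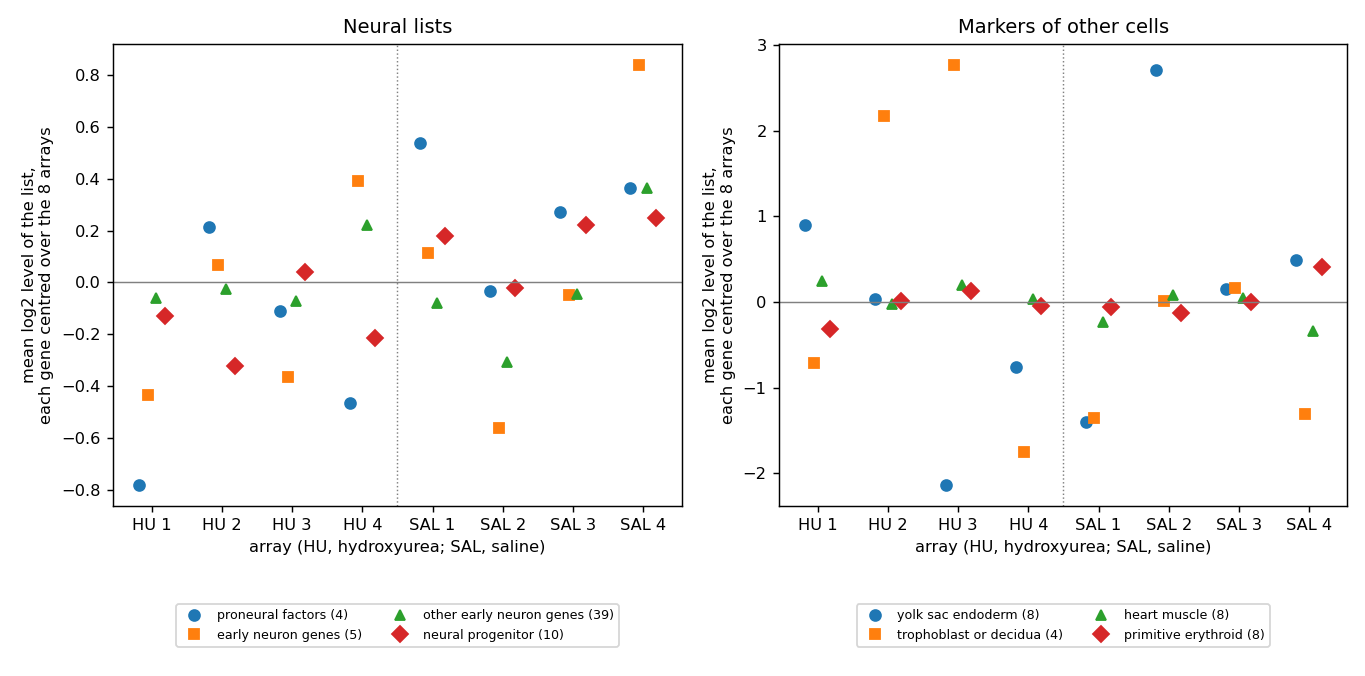
Mean log2 level of each list on each array, with every gene centred over the 8 arrays (y axes), for neural lists (left) and markers of other cells (right); the number of genes is in brackets and hydroxyurea arrays stand left of saline arrays. Early neuron genes are lowest on saline 2 and highest on saline 4, and yolk sac markers are highest on saline 2.

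Other genes of the pathway passed the test about as often as named genes in general. Of 101 genes in the 5 further lists, 91 were measured and 5 were called, 2 as higher and 3 as lower, against 5.62% of all named genes (3.6% higher, 2.01% lower). Named genes with no overlap between groups made up 16.0%. In the list of other proneural and neuronal helix-loop-helix genes, 1 of 10 measured members was higher, 0 were lower, and the median log2 difference was -0.16. The one was Tcf12, which encodes an E protein that pairs with proneural factors. It read 3.98, 3.49, 3.91 and 4.10 in hydroxyurea embryos and 3.11, 3.30, 3.12 and 3.21 in saline embryos, and rose by 0.68 ± 0.17 (SE, n = 4 per group, limma adjusted p = 0.043), but a second Tcf12 probe gave -0.16 and the call held in 5 of 20 alternative settings, but ended when slides were blocked (limma adjusted p = 0.062).

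Known targets and repressors of proneural factors gave no calls. Of 16 measured target genes 0 passed by limma, with a median of 0.11. An unadjusted p under 0.05 was found for 4 of them, against 24.7% of all tested probes. The lowest p among them were those of the Notch ligand gene Dll4 (0.52, limma adjusted p = 0.138) and the corepressor gene Cbfa2t3 (0.35, adjusted p = 0.176). Of 11 measured repressors, the Hes, Hey and Id genes and Rest, 0 passed by limma, with a median of 0.22 and 1 at an unadjusted p under 0.05. The 2 with the lowest p were Heyl (0.72, limma adjusted p = 0.126) and Id3 (-0.40, adjusted p = 0.250), whose product blocks E proteins.

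In the list of other early neuron genes 1 of 39 measured members was higher, 1 was lower and 37 did not pass, with a median of 0.07. Nefh, which encodes the heavy neurofilament, rose by 1.39 ± 0.25 (SE, n = 4 per group, limma adjusted p = 0.013). Its levels were -1.08, -1.95, -1.53 and -1.50 in hydroxyurea embryos and -2.96, -2.45, -2.83 and -3.39 in saline embryos, with no overlap, and it passed in 18 of 20 alternative settings (0.88 with normexp). Syp, which encodes the synaptic vesicle protein synaptophysin, fell by 0.93 (SE 0.22, n = 4 per group, limma adjusted p = 0.036). It read 0.96, 1.71, 1.48 and 0.89 in hydroxyurea embryos and 2.05, 2.47, 2.15 and 2.09 in saline embryos, and passed in 8 of 20 settings, but missed the threshold when slides were blocked (limma adjusted p = 0.054).

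Among 15 measured factors of neuron subtypes 2 passed, both as lower, with a median of -0.01 over the 15. Lhx1, a LIM homeodomain factor gene of interneurons that is also active in early mesoderm and the nephric duct, fell (log2 difference -1.10 ± 0.24, SE, limma adjusted p = 0.029). Its levels were -3.57, -3.42, -3.64 and -3.77 in hydroxyurea embryos and -2.86, -1.86, -2.38 and -2.92 in saline embryos. Lhx1 was well above background on 3 of the 4 hydroxyurea arrays and on all 4 saline arrays. Lmx1b, a factor gene of the isthmus and roof plate as well as of later neurons, read -2.80, -2.53, -2.81 and -2.96 in hydroxyurea embryos and -1.96, -2.10, -1.76 and -2.18 in saline embryos. It fell by 0.77 (SE 0.16, limma adjusted p = 0.024), and a second probe stood at -0.67 without passing. The Lhx1 call held in 9 of 19 alternative settings and the Lmx1b call in 8 of 20. The filter that asks all 8 arrays for a signal well above background left Lhx1 out. With slide and row as blocks neither passed (adjusted p = 0.059 and 0.056), and with normexp the differences were -0.41 and -0.38 and did not pass.

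**Figure D4:**
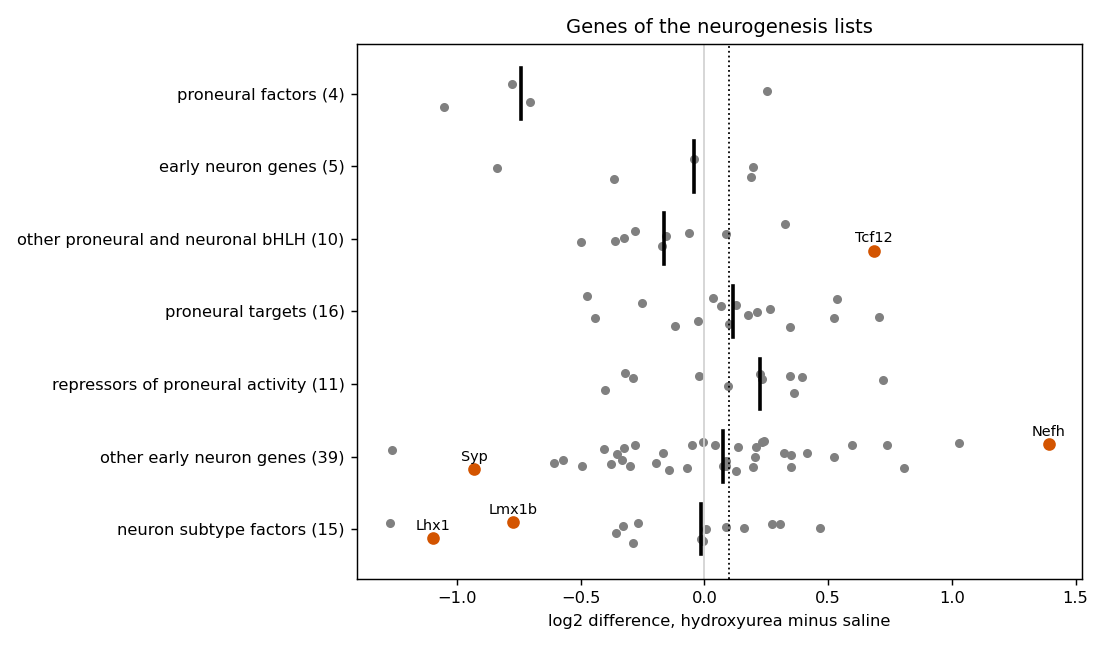
Log2 difference of hydroxyurea minus saline (x axis) for each measured gene of the lists (y axis, number of genes in brackets), with called genes in orange and named, list medians as black bars and the median of all named genes as a dotted line. The 9 proneural and early neuron genes hold no call and the 5 called genes lie in 3 other lists.

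Most neural progenitor markers lay below 0, as did most markers of some other tissues. Of 10 measured progenitor markers 0 were called by limma, and 9 lay below 0 with a median of -0.34. Below 0 also lay 7 of 8 primitive erythroid, 8 of 8 yolk sac endoderm and 1 of 8 heart muscle markers. The median of all named genes was 0.10. An unadjusted p under 0.05 was seen for 3 progenitor markers, against 24.7% of all tested probes. Sox2, Msi1 and Pax6, progenitor genes of the neural tube named after their values were seen, had no overlap between groups. Hydroxyurea lay below in these 3 of 10 markers, against 5.82% of all named genes. It also lay below in 1 of 6 placode and 1 of 8 primitive erythroid markers, and in 0 of 8 heart muscle markers. Groups overlapped in the other progenitor markers, among them Nes (-0.02), Hes5 (-0.02) and Fabp7 (0.11). The summed level of the 10 markers ran from 87.7 to 119 in hydroxyurea embryos and from 94.0 to 133 in saline embryos. Of 7 neural crest markers 1 was lower, Sox10 (-0.78 ± 0.15, limma adjusted p = 0.017), and 0 were higher, against 2.01% and 3.6% of all named genes. The median of the 7 was 0.01, with 4 above 0 and 3 below. Ednrb and Foxd3 were named after their values were seen, and neither was called. Ednrb stood at 0.36 with every hydroxyurea array above every saline array, and Foxd3 at -0.65 with overlapping groups. Of 6 placode markers and 8 primitive erythroid markers 0 were called, with medians of -0.18 and -0.04, and of 8 heart muscle markers 1 was higher, Myh7 (0.63 ± 0.14, limma adjusted p = 0.032). The part of these markers in the Neurog2 difference was not tested.

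The genes most like the members over the 8 arrays were found by the Pearson correlation of their log2 level with the mean standardised level of the 9 genes. Of 14614 other named genes the highest were Sst (0.979), the gene of somatostatin, Stat4 (0.958), Nefl (0.956), the light neurofilament gene, Clmp (0.953) and Wnt8b (0.951), a Wnt ligand gene of the forebrain. Spearman's rho for these 5 ran from 0.71 to 0.98, and with group means removed Pearson's r was between 0.96 and 0.99. They were picked as the highest of many over 8 arrays that share their hybridisation and scaling, and 0 of the 5 were called by limma between hydroxyurea and saline.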

How the data were processed

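The 8 arrays were read with Agilent Feature Extraction 11.5.1.1, per the submitters' processing notes and the file headers, and the deposited spot intensity (the processed signal) is background-subtracted and spatially detrended within the array, per the file headers. The authors' deposited table of genes called different gives log2 values, centred per probe, with the normalization not given in the sources used here, and was used only to look for the members.

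Spots flagged as outliers and control spots were left out, spots of a probe were averaged, and log2 signals were scaled to each array's 75th percentile. Probes well above background on at least 4 arrays (30758 of 55681) entered the linear model of limma (version 3.58.1, R 4.3.3; functions lmFit and eBayes, two-sided), with Benjamini-Hochberg adjustment over all of them and a threshold of 0.05. Of these, 82 had a missing value on some array and were fitted on the rest. Genes were named through RefSeq accessions, and a gene counts by its probe with the highest mean signal. The fit was tested on simulated data.

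The members and lists were chosen with earlier results of these data known. Named in the text are all members, the called genes of each other list (at most 5, or the 2 lowest p where none is called), and the 5 genes most like the members. Groups follow the labels. The number of arrays limits the precision, and p-values measure only the spread between these samples. The normexp alternative (offset 50) used the median spot signal, since the files have no column of mean signal. Alternatives covered background, scaling, filter, slide, probe choice, variance prior and leaving out each array.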

Additional observations from a re-analysis of the deposited data

Results flagged for a closer look

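In the 22 sets of 4 arrays examined (11 member probes, each in both groups), 1 array stood apart from the rest of its group: saline 4 for Neurog1, at a log2 level of -3.02, against -2.37 to -2.48 on the other saline arrays. Its gap to the nearest array was 0.839 of the group's range, above Dixon's 95% critical value for 4 values. Chance flags about 1 in 20 such sets. Without saline 4 the Neurog1 difference between hydroxyurea and saline was -0.85, against -0.71 with it.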

How the results depend on the processing

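Over 20 alternatives, no member gene was called in 16, and Neurog2 was the 1 gene and 1 probe called with normexp (adjusted p = 0.029), with the filter that asks all 8 arrays for a signal well above background (0.041) and with a trended, robust variance prior (0.032). Leaving out each array in turn gave 0 to 1 member genes or probes, 1 to 8 other listed genes and 863 to 4861 probes in all, with both maxima without hydroxyurea 2. Against 5 other listed genes, 3 were called with normexp, median centring or the slide as a block, 1 with no filter or with slide and row as blocks, and 0 on slide 1 or slide 2 alone. Against 2097 probes, 911 were called with no filter, 1356 with slide and row as blocks, 52 on slide 1 alone and 3 on slide 2 alone, where each group has 2 arrays. The first Elavl4 probe, near 0, was positive with normexp (0.0584), median centring (0.0756), slide 1 alone (0.0771) and the mean of probes (0.228), and ran from -0.178 to 0.0904 when arrays were left out. The first Dcx probe was -0.0519 on slide 2 alone and ran from -0.108 to 0.544 when arrays were left out. The cause was not tested. The median of the 9 genes stayed negative, from -0.52 to -0.01. Median centring put the median of all tested probes at 0.14, against 0.02. No paired analysis was possible because the labels tie no array to an experiment and the array numbers only follow the order of the samples. Slide, which the array identifiers name, and row on the slide were used as blocks in alternatives only. The main fit had no block. Neurod4, Lhx1 and 2 Dcx probes lie near background, which limits what their values show.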
